A study of Sus scrofa with 36 samples.

Results

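MicroRNAs of whole pig hearts were compared between postnatal day 7 (P7) and postnatal day 28 (P28) in small RNA libraries. The 6 libraries, 3 at each age, were all those of these 2 ages in the small RNA count table of batch cd, out of 36 samples in the series, and no measured value was used to choose them. Each library came from the heart of a different domestic Yorkshire pig aged 7 or 28 days, no treatment was given, and CD Genomics sequenced the batch. The tissue was the entire heart, so cardiomyocytes and nonmyocytes contributed together, and fewer cells of a type cannot be told apart from less RNA per cell. Libraries are numbered 4 to 6 as in the columns of the table, because these numbers could not be tied to the animal numbers in the labels.

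MicroRNAs (miRNAs) are short RNAs cut from hairpin precursors, and each precursor can release a mature miRNA from its 5p arm, from its 3p arm or from both. A mature miRNA guides a silencing complex to messenger RNAs that match its seed, which lowers their stability or translation. Several miRNAs are strongly enriched in heart muscle, and the first weeks after birth are the time when cardiomyocytes of mammals leave the cell cycle, enlarge and turn from glucose to fatty acids as fuel.

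The table held 406 mature miRNA entries after rows of the same miRNA were summed, and 246 of them had 10 counts or more in 3 or more of the 6 libraries. The other 160 were below this filter, and 94 of those had no count in any of the 6 libraries. Library totals ranged from 3369098 to 7903836 counts. Between 286 and 298 entries had a count in a library. Levels are given as CPM, counts scaled to a common library size, after normalization by the trimmed mean of M values (TMM), which centers the libraries on the bulk of the miRNAs rather than on the most abundant ones. In a principal component analysis the first component held 62.8% of the variance and placed the P7 libraries on one side and the P28 libraries on the other, whereas the second, with 13.2%, separated libraries within an age.

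Heart markers dominated all 6 libraries. miR-1, the most abundant miRNA of striated muscle, took 35.2%, 36.0% and 38.5% of the counts at P7 and 41.2%, 44.0% and 45.0% at P28. The mean share was 36.6% ± 1.72 at P7 and 43.4% ± 1.95 at P28 (SD, n = 3 each), and the ages did not overlap. Markers of other tissues differed in their level. The kidney and gut miRNAs summed to 366 to 465 CPM over the 6 libraries, mostly miR-192, and the neural list, mostly miR-9, to 85.7 to 154 CPM. The liver miRNA miR-122 had 28 counts over the 6 libraries, the epithelial miRNAs miR-429 and miR-205 had 19 and 3, and the neural miR-124a had 2.

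**Figure D1:**
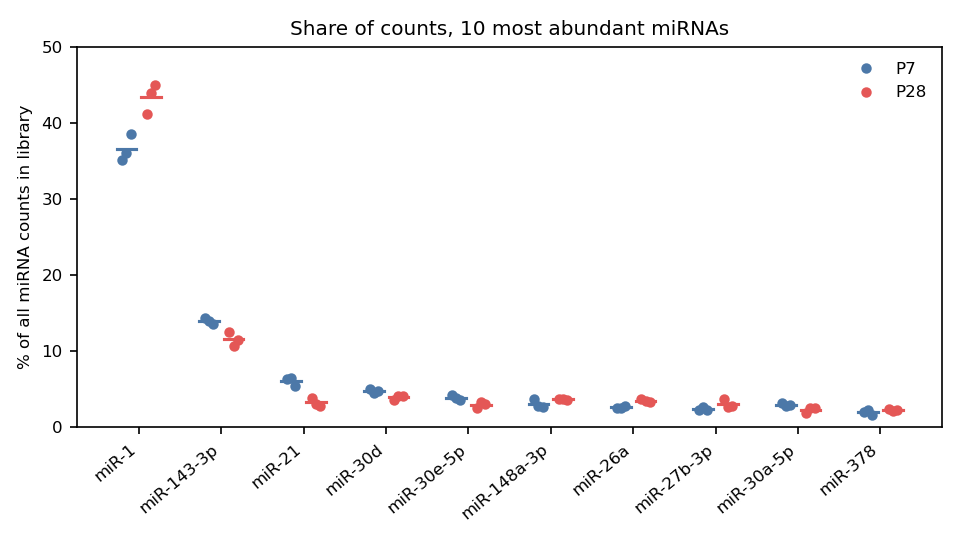
Share of all miRNA counts in a library (y axis, percent) for the 10 most abundant miRNAs (x axis), with 1 point per library, P7 in blue and P28 in red, and a line at each mean (n = 3). The 3 P28 libraries lie above the 3 P7 libraries for miR-1 and below them for miR-21.

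Of the 246 miRNAs tested, 94 (38.2%) differed between P7 and P28 at an adjusted p under 0.05 by edgeR's quasi-likelihood test with Benjamini-Hochberg adjustment. At P28, 42 were higher (17.1%) and 52 were lower (21.1%). Among changes of more than 1 on the log2 scale, 11 were higher and 26 were lower. The 3 libraries of one age did not overlap those of the other for 120 miRNAs (48.8%), of which 91 were called. The median log2 fold change over all miRNAs tested was −0.05, and the coefficient of variation between pigs was 0.166. An exact permutation test of a single miRNA in 3 pigs against 3 cannot give a p below 0.1, so single calls rest on the spread shared across miRNAs.

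The split between directions depended on the scaling. TMM gave 44.7% of the calls as higher at P28, whereas scaling to library totals alone gave 115 calls, 15 higher and 100 lower, or 13.0% higher. That scaling counts the larger share of miR-1 at P28 against all other miRNAs, and it moved the median log2 fold change to −0.35. With library totals taken without the counts of miR-1, 26 were higher and 62 lower, or 29.5% higher, with a median of −0.19. The number of higher calls fell to 21 without P7 library 5, to 23 without P7 library 6 and to 24 without P28 library 6. The 12 higher and 12 lower miRNAs with the smallest p and no overlap kept their direction and call under every scaling, test, filter and left-out library that was run, except that miR-29b had too few counts to be tested with a minimum of 50.

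**Figure D2:**
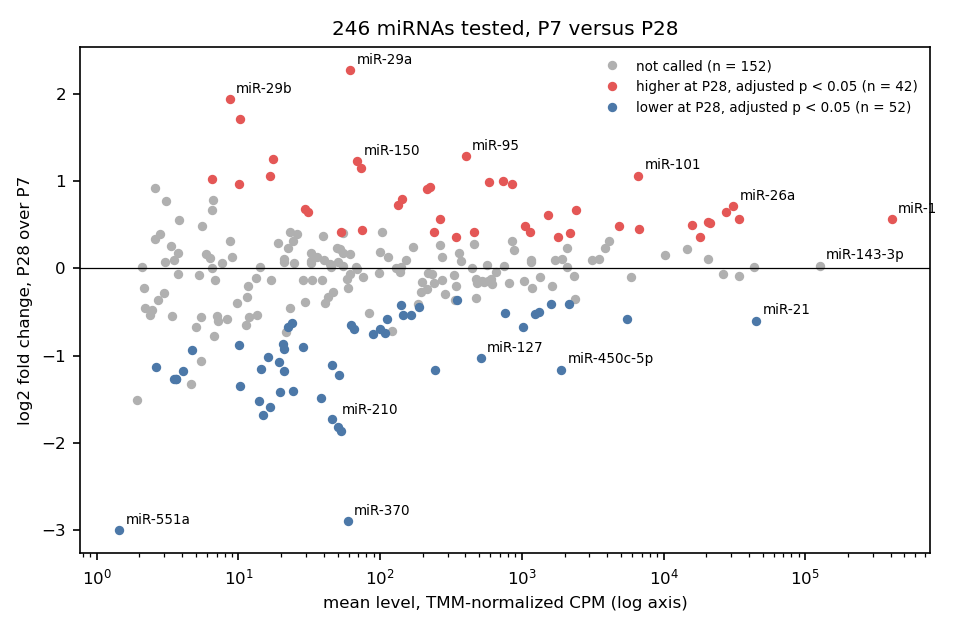
Log2 fold change of P28 over P7 (y axis) against the mean level in TMM-normalized CPM (x axis, log scale) for the 246 miRNAs tested. Red points are the 42 called higher at P28, blue points the 52 called lower and grey points those not called; miR-29a, at 2.27, stands highest. The fitted value of miR-551a, with 1 or 2 counts in each P28 library, is shown but is no measure of its fold.

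The miR-29 family, whose known targets include messenger RNAs of collagens and other matrix proteins, rose more than any other called miRNA. miR-29a was at 22.6, 14.3 and 27.1 CPM in the 3 P7 libraries and at 112, 111 and 80.7 CPM in the 3 P28 libraries. The groups were far apart, with a fold of 4.81 (log2 fold change 2.27, SE 0.24, edgeR adjusted p = 1.52e-04). miR-29b rose from 2.55, 3.59 and 4.87 CPM to 14.3, 15.7 and 11.07 CPM, and miR-29c from 5.10, 4.44 and 4.60 CPM to 16.6, 12.0 and 18.6 CPM. All 3 members in the table were called, with a median log2 fold change of 1.94 against −0.05 over all miRNAs. Some counts of all 3 members were fractional, the mark of reads shared between entries, so the split of reads within the family is uncertain. P1 and P3 entered no main test, only the alternative fit of all 12 libraries. Their levels are given on a scale set over 12 libraries, which lay within 0.986 to 1.08 times the scale of the 6 libraries. miR-29a was at 24.8 to 34.3 CPM at P1 and at 26.1 to 65.9 CPM at P3. miR-29c reached 13.8 CPM at P3, inside its P28 range of 11.8 to 18.5 CPM, whereas miR-29b was at 3.46 to 5.29 CPM at P3.

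Several abundant miRNAs were also higher at P28. miR-101, which is known to target the histone methyltransferase EZH2, was at 4500.1, 4381 and 3974 CPM at P7 and at 8240.1, 9373 and 9194 CPM at P28. This was a fold of 2.09, and the 3 P28 hearts lay close together. miR-26a, which also targets EZH2, rose from 22888, 22055 and 25905 CPM to 38633, 37783 and 39283 CPM (log2 fold change 0.71, SE 0.10, edgeR adjusted p = 7.38e-04). miR-95 was at 257, 225 and 219.6 CPM at P7 and at 606, 454 and 640 CPM at P28, a fold of 2.42. It ranged from 67.8 to 104 CPM at P1 and from 135 to 228 CPM at P3, so its level at P28 was the highest of the 4 ages. miR-374a-5p, encoded on the X chromosome, rose from 490.5, 378 and 303 CPM to 656, 788 and 878 CPM, but its P1 and P3 libraries reached 842 and 1007 CPM, within or above the range at P28.

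The list of cardiac and striated muscle miRNAs had 8 members in the table, all tested, of which 5 (62.5%) were called higher and none lower, against 17.1% higher over all miRNAs, with a median log2 fold change of 0.48. miR-1 was at 322456, 314589 and 351562 CPM at P7 and at 429166, 478388 and 545189.7 CPM at P28 (log2 fold change 0.56, SE 0.11, edgeR adjusted p = 0.0043). miR-133b, which shares a locus with miR-206, was at 149.9, 158 and 153 CPM at P7 and at 330.4, 286 and 262.5 CPM at P28, a fold of 1.91. Both were called under every alternative run. miR-133a-3p, which is transcribed together with miR-1, had a log2 fold change of 0.36 and rose from between 15262 and 16704 CPM to between 18092 and 21505 CPM. miR-208b, which lies within the gene for the slow beta myosin heavy chain, rose from between 948 and 1038 CPM to between 1154 and 1578 CPM, a log2 fold change of 0.41.

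The smaller changes of this list were less secure. Without P7 library 5, P7 library 6 or P28 library 5, only 2 of the 5 calls were left, and edgeR's adjusted p rose to at most 0.106 for miR-133a-3p and 0.157 for miR-208b. Under library totals alone 2 of the list were called higher and 1 lower, with a median of 0.18. miR-206, better known from skeletal muscle, was at 9.22 to 12.5 CPM at P7 and at 11.6, 44.7 and 17.2 CPM at P28. Its groups overlapped, and its call (log2 fold change 1.25, SE 0.44, edgeR adjusted p = 0.0476) was lost without P28 library 5 or any 1 of the P7 libraries, at an adjusted p of up to 0.259. miR-499-5p, from an intron of a myosin gene, was at 12956 to 14145 CPM at P7 and at 15459 to 16042 CPM at P28, but its log2 fold change of 0.22 was not called (edgeR adjusted p = 0.111).

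Among miRNAs with known links to metabolism, miR-378 and miR-378b-3p were the 2 called of 5 tested, both higher (40%, against 17.1% higher and 38.2% called over all miRNAs), and the median of the list was 0.26. Under library totals 1 was higher and 1 lower, with a median of −0.02. miR-378b-3p was at 487, 588 and 391 CPM at P7 and at 931, 967 and 1039 CPM at P28, a fold of 2.00 (SE 0.15 on the log2 scale, edgeR adjusted p = 7.99e-04). At P1 it ranged from 174 to 214 CPM, below every later library. At P3 it ranged from 295 to 796 CPM, reaching above the P7 range. miR-378, which has many more counts, was at 18380.3, 19705 and 14376 CPM at P7 and at 25219, 22672 and 27348 CPM at P28 (log2 fold change 0.52). Its call was lost without P7 library 6 or P28 library 6, at an edgeR adjusted p of up to 0.0558, and under library totals alone. Both had fractional counts, so reads shared between them or with other entries cannot be told apart.

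The miR-23, miR-24 and miR-27 group, made from a pair of gene clusters and known from endothelial and muscle cells, had 5 of 8 members (62.5%) called higher, against 17.1% over all miRNAs, none lower, and a median of 0.45, whereas under library totals 2 were higher and 1 lower with a median of 0.15. miR-27a was at 568, 593 and 575 CPM at P7 and at 1407, 847 and 1121 CPM at P28, a fold of 1.94, with a far wider spread at P28. miR-24-2-5p rose from 12.2, 10.4 and 9.75 CPM to 22.3, 21.1 and 24.7 CPM, and miR-27b-3p from between 20587 and 23622 CPM to between 29254 and 39029.7 CPM. miR-24-3p had a log2 fold change of 0.45, and miR-24-1-5p one of 0.44 with an edgeR adjusted p of 0.0496 that rose above 0.05 when any of 5 of the 6 libraries was left out. The remaining members, among them miR-23a at −0.12 and miR-23b at 0.11, were not called.

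For 3 other families the calls were small or depended on 1 library, and their counts stand beside 17.1% higher and 21.1% lower over all miRNAs. The miR-99, miR-100 and miR-125 group had 3 of 5 members higher, miR-99a at 0.50, miR-100 at 0.53 and miR-125b at 0.40 on the log2 scale, but 0 of these 3 calls were left without P7 library 5, and under library totals 0 members were higher and 1 was lower. The miR-30 family, abundant in heart muscle, had 2 of 10 higher, miR-30b-5p at 0.36 and miR-30e-3p at 0.61, with a median of 0.08, and 0 were left without P7 library 5, P7 library 6 or P28 library 6. Its direction turned under library totals, with 0 higher, 4 lower and a median of −0.22. Its most abundant members, miR-30d and miR-30e-5p, had log2 fold changes of 0.02 and −0.09 with edgeR adjusted p-values of 0.903 and 0.662. In the let-7 family, known to accumulate as cells differentiate, let-7i was the one member of 9 called, at 6093, 6847 and 6960.5 CPM at P7 and 4296, 4414 and 4582 CPM at P28 (log2 fold change −0.58, SE 0.10, edgeR adjusted p = 0.00213). The most abundant member, let-7f, had 0.15 and was not called, and the family median of 0.02 became −0.28 under library totals, with 3 members lower. None of the 4 members tested of the miR-181 family was called.

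Many of the lower miRNAs belonged to the imprinted DLK1-DIO3 region, whose noncoding RNAs mammals express from the maternal chromosome. Of the 20 members listed, 13 passed the filter, and 10 of these (76.9%) were called lower, against 21.1% over all miRNAs, none higher, with a median log2 fold change of −1.18. miR-370 fell from 93.8, 126 and 92.9 CPM at P7 to 17.1, 12.8 and 12.2 CPM at P28, so that its level at P7 was 7.43 times that at P28 (log2 fold change −2.89, SE 0.20, edgeR adjusted p = 1.98e-05). This was the smallest p of all 246 miRNAs. Its level was already high at P1, at 107 to 140 CPM, and at P3, at 76.2 to 128 CPM.

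Other members of the region were also lower at P28. miR-758 was at 78.5, 94.1 and 75.3 CPM at P7 and at 19.04, 23.8 and 25.7 CPM at P28, and miR-127, the most abundant member, was at 686, 773 and 598 CPM at P7 and at 319, 294 and 397 CPM at P28. In no case did a P28 library reach the lowest P7 library. miR-323 fell by 1.52, miR-411 by 1.41 and miR-493-3p by 1.68 on the log2 scale, with edgeR adjusted p-values of 4.92e-04, 4.92e-04 and 7.99e-04. The other 4 called were miR-369, miR-382, miR-432-5p and miR-493-5p, between −0.93 and −1.35. Leaving out any 1 library kept 9 or 10 of the 10 calls, and miR-493-5p, at 2.97 to 6.83 CPM in the 6 libraries, was the least secure (edgeR adjusted p up to 0.098). The 3 members tested but not called were miR-299 at −0.78, miR-376a-3p at −0.55 and miR-136 at 0.12.

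miR-210, which is induced by hypoxia-inducible factors, fell from 64.8, 73.1 and 71.2 CPM at P7 to 20.3, 21.7 and 21.4 CPM at P28. The 3 hearts of each age agreed closely, and the level at P7 was 3.29 times that at P28 (log2 fold change −1.72, SE 0.15, edgeR adjusted p = 7.08e-05). It had been at 166 to 217 CPM at P1 and at 77 to 134 CPM at P3, so the ranges of the 4 ages were in descending order and did not overlap.

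Several members of a cluster on the X chromosome that holds miR-424, miR-503, miR-450 and miR-542 were lower at P28. miR-424 and miR-503 belong to the extended miR-15 family, which represses cyclins and other cell cycle genes. Of 9 members tested 5 (55.6%) were called lower, against 21.1% over all miRNAs, and none higher, with a median of −0.51, and the others were between −0.67 for miR-424-3p and 0.39 for miR-450c-3p. miR-503 was at 91.1, 88.6 and 54.7 CPM at P7 and at 19.04, 20.4 and 27.9 CPM at P28 (log2 fold change −1.82, SE 0.24, edgeR adjusted p = 4.92e-04). miR-450c-5p, which had fractional counts, fell from 2425, 2735 and 2688 CPM to 1154, 1319.8 and 1048 CPM. miR-450b-5p and miR-542-3p were lower by smaller amounts, with log2 fold changes of −0.51 and −0.52. miR-424-5p had −0.42, and leaving out any of 5 of the 6 libraries raised its edgeR adjusted p above 0.05, to at most 0.204.

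Entries matched by number to the miR-17-92 cluster and its paralogs, which promote proliferation, were lower where they were called. Matching by number also took in miR-92b, whose place in these clusters was not checked. Of 11 tested 5 (45.5%) were lower and none higher, against 38.2% called and 21.1% lower over all miRNAs, the median was −0.36, and the 5 calls were kept without any 1 library. miR-363 was at 304, 443 and 257 CPM at P7 and at 143 to 156 CPM at P28 (log2 fold change −1.16, SE 0.19, edgeR adjusted p = 0.00147). miR-20b and miR-106a, which lie with miR-363 in an X chromosomal paralog of the cluster in mammals, had log2 fold changes of −1.49 and −1.42. miR-20b went from 60.8, 71.0 and 37.4 CPM to 21.5, 16.7 and 22.9 CPM, and miR-106a from 32.2, 34.7 and 19.5 CPM to 6.92, 12.2 and 13.2 CPM. miR-18a fell by 0.90 and miR-92b-3p by 1.02 on the log2 scale. On the scale of 12 libraries, miR-363 at P1 was at 180 to 222 CPM and miR-20b at 26.5 to 30.7 CPM, below P7. P1 ranges of miR-106a and miR-18a, 15.6 to 18.7 and 18 to 26 CPM, were also below P7. For miR-92b-3p the P1 range, 18.4 to 19.5 CPM, overlapped that of P7. miR-92a, the most abundant member at 1083 to 1267 CPM, had a log2 fold change of 0.07 and was not called.

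Of the miR-15 family proper, in which miR-195 has been tied to the arrest of cardiomyocyte division after birth, 1 of 5 (20%) was called, against 38.2% over all miRNAs. This was miR-497, at 32.0, 25.4 and 22.2 CPM at P7 and 18.8, 11.6 and 13.6 CPM at P28 (log2 fold change −0.87, SE 0.23, edgeR adjusted p = 0.0159). The call was lost without P7 library 4, P7 library 5 or P28 library 5, with an adjusted p of up to 0.0922. miR-195 itself had a log2 fold change of −0.12, and miR-16, the most abundant member, one of 0.10, neither called.

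miR-21, known for its high level in fibroblasts and in stressed myocardium, was among the 3 most abundant miRNAs and fell. It was at 58032, 55917 and 49751 CPM at P7 and at 39798, 33486 and 34462 CPM at P28 (log2 fold change −0.60, SE 0.11, edgeR adjusted p = 0.00273). The P3 libraries, at 28931 to 53780 CPM, overlapped the ranges of both later ages. The miR-199 and miR-214 group, known from mesenchymal cells, had 3 of 5 entries (60%) lower, against 21.1% over all miRNAs, with a median of −0.41. Counts of miR-199a-3p and miR-199b-3p kept nearly the same ratio in every library, so these uncalled entries count as 1 measurement. miR-214 fell from 185, 175 and 226 CPM to 142, 132 and 134 CPM. miR-199a-5p and miR-199b-5p, both with fractional counts, were at −0.41 each, and their calls were lost without P7 library 4, P7 library 6, P28 library 4 or P28 library 6, which left 1 call in the list.

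A few other miRNAs were among the 12 with the smallest p in their direction. miR-744 fell from 58.1, 65.0 and 65.3 CPM at P7 to 26.7, 29.6 and 30.7 CPM at P28 (log2 fold change −1.11, SE 0.15, edgeR adjusted p = 4.92e-04). miR-296-3p fell from 24.8 ± 4.51 CPM to 8.40 ± 1.42 CPM (SD, n = 3 each), a log2 fold change of −1.59. The groups did not overlap for either miRNA. miR-551a passed the filter through the P7 libraries alone, as the only miRNA that passed in 1 age. It had 15, 10 and 11 counts at P7 and 2, 1 and 1 counts at P28, too few for a fold to be given.

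**Figure D3:**
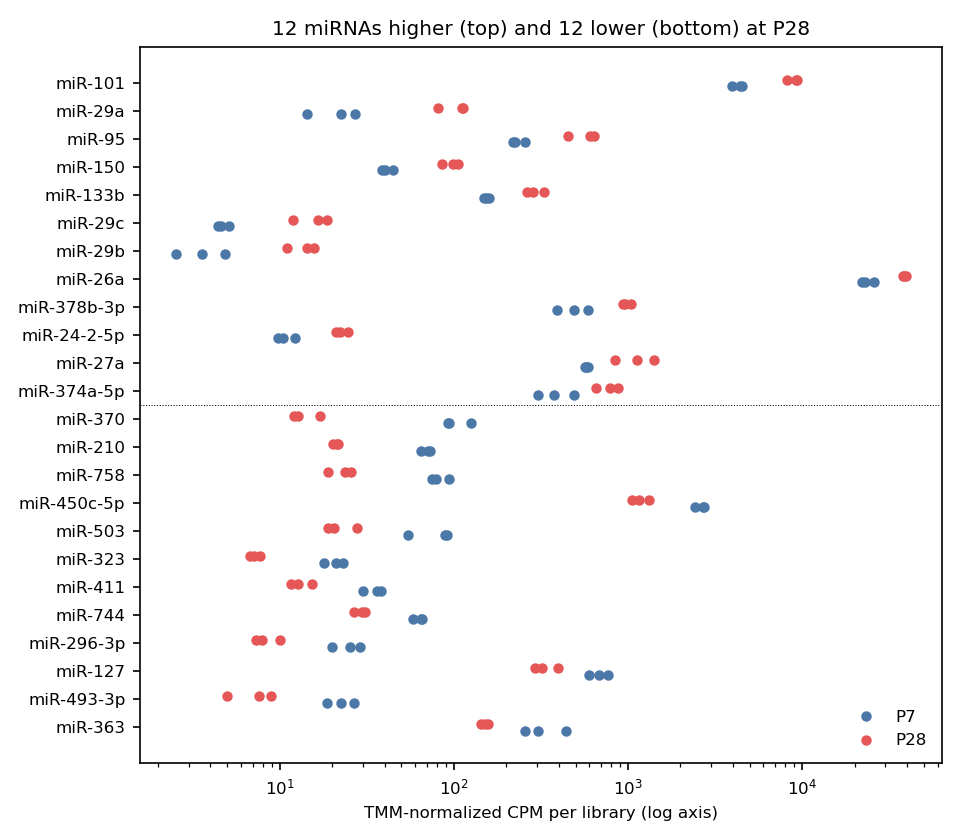
Level of the 12 miRNAs called higher and the 12 called lower at P28 that had the smallest p and no overlap, in TMM-normalized CPM (x axis, log scale), with 1 point per library, P7 in blue and P28 in red (n = 3 each). For every miRNA shown the 3 points of one age lie apart from the 3 of the other, with the widest gap for miR-370.

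The circRNA, miRNA and mRNA network that the study built around cell cycle genes names miRNAs predicted to bind circRNAs that were themselves picked from pig hearts of this series, so their counts may not be independent evidence of a direction. Entries were matched by miRNA number. The study names 1 arm of each, but most of the matched names in the table carry no arm, so the arm measured may be the other one. No entry matched miR-197. Of 12 entries matched, which include miR-140-3p although the study names the 5p arm, 9 passed the filter and 4 (44.4%) were called, all lower, against 38.2% called and 21.1% lower over all miRNAs, with a median of −0.23. miR-7 fell from 1342, 1219 and 1191 CPM to 635, 904 and 824 CPM (log2 fold change −0.67, SE 0.14, edgeR adjusted p = 0.00524). miR-214 and miR-18a were described with their families. miR-132, at 30.6, 30.6 and 25.5 CPM at P7 and 24.0, 13.9 and 18.6 CPM at P28, had the weakest of the 4 calls (edgeR adjusted p = 0.0476), which was lost under 13 alternatives. miR-128, miR-140-5p, miR-15a and miR-215 had log2 fold changes between −0.23 and 0.03 and were not called, and miR-31 had 3 counts in all.

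Markers of other cell types moved with age in part, and their part in the other results was not tested. Of 8 leukocyte miRNAs listed, 6 were tested, and 3 were higher and 1 lower (66.7% called, against 38.2% over all miRNAs), or 2 and 2 under library totals. miR-150, of mature lymphocytes, was at 38.5, 44.9 and 40.1 CPM at P7 and at 98.9, 85.3 and 106 CPM at P28 (log2 fold change 1.23, SE 0.15, edgeR adjusted p = 3.36e-04), after 14.7 to 17.5 CPM at P1. miR-142-5p, found in most blood cells, rose from 42.0, 50.2 and 43.3 CPM to 151, 71.2 and 80.0 CPM, and miR-146a-5p from 117, 109 and 88.5 CPM to 224, 135 and 186 CPM, a call lost without P7 library 6 (edgeR adjusted p = 0.0597) and under library totals. miR-155-5p, of activated immune cells, moved the opposite way, from 65.1, 66.2 and 84.8 CPM to 39.1, 30.6 and 22.5 CPM (log2 fold change −1.22). The members not called were miR-142-3p, the other arm of mir-142, at 0.22 and miR-146b at −0.72 (edgeR adjusted p = 0.36 and 0.0535). The summed level of the list was 430.5 to 499.8 CPM at P7 and 459.6 to 699 CPM at P28, so the ages overlapped, and the 2 passenger strands miR-155-3p and miR-146a-3p had no count.

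The erythroid list, miR-451, miR-144 and miR-486, summed to 2438 to 3648 CPM at P7 and 3636 to 4502 CPM at P28. miR-451 alone of the 3 (33.3%) was called, against 38.2% over all miRNAs, rising from 2180.4, 2105 and 1340.1 CPM to 2441, 3119 and 3392 CPM (log2 fold change 0.67, SE 0.19, edgeR adjusted p = 0.024), and this was lost without P28 library 5 or P28 library 6, with upper quartile factors, with all 12 libraries in 1 fit and under library totals, where 1 member of the list was called lower instead. For the endothelial miR-126, the 3p arm had a log2 fold change of 0.11 and was not called, whereas the 5p arm had −0.50, a call lost without P7 library 4, P7 library 5, P28 library 5 or P28 library 6. None of the 4 smooth muscle entries was called, although 2 were called lower under library totals. miR-143-3p, the second most abundant miRNA, was at 132055, 122225 and 122879.5 CPM at P7 and 130434, 116787 and 138027 CPM at P28.

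Of the neural list 3 entries were tested and all were called lower, against 21.1% over all miRNAs, but only 1 by DESeq2's test. miR-9 was at 129, 126.7 and 144 CPM at P7 and at 96.5, 91.1 and 79.7 CPM at P28 (log2 fold change −0.58, SE 0.13, edgeR adjusted p = 0.00755). miR-129a-5p and miR-129b had the same values as each other in all 6 libraries, at 1.24 to 6.49 CPM, and count as 1 measurement. Their call was lost without P7 library 5, P7 library 6, P28 library 5 or P28 library 6. None of the kidney and gut entries was called, and both epithelial entries and miR-122 were below the filter.

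**Figure D4:**
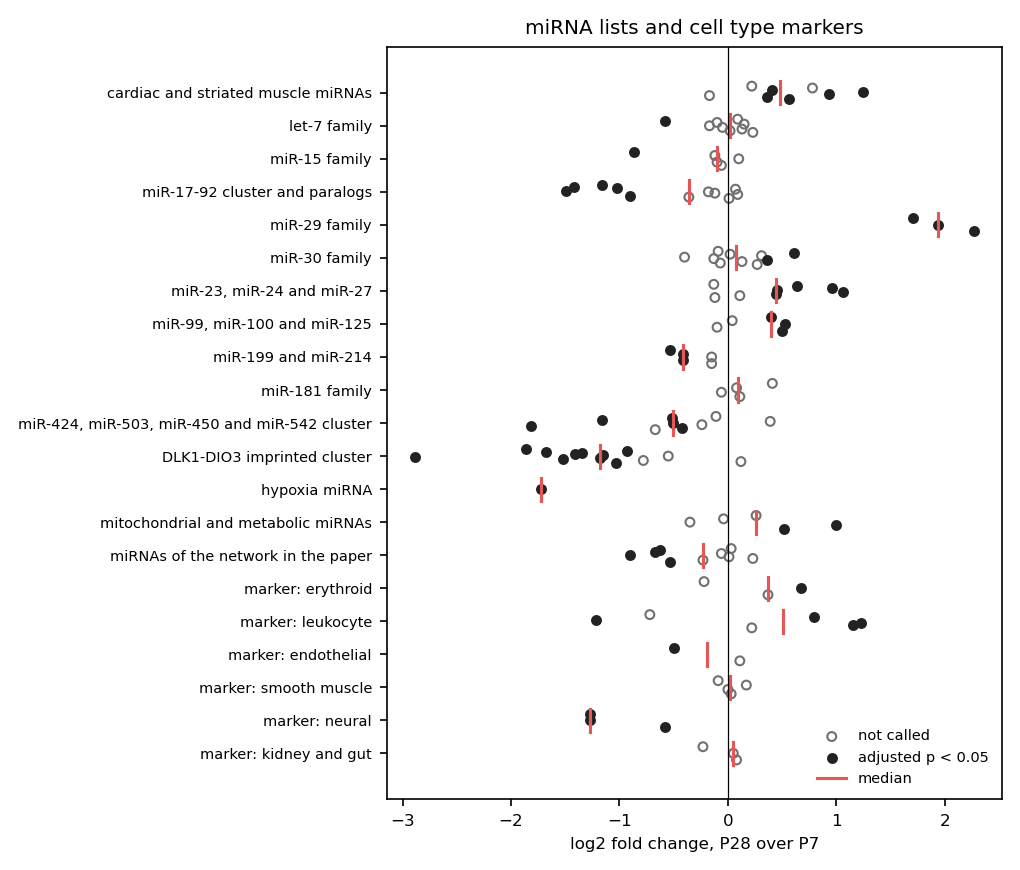
Log2 fold change of P28 over P7 (x axis) of each miRNA tested, by list (y axis), with filled points at an adjusted p under 0.05, open points otherwise, and a red line at the list's median. The miR-29 family lies to the right and the DLK1-DIO3 cluster, miR-210 and the miR-424, miR-503, miR-450 and miR-542 cluster lie mostly to the left.

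Mature miRNAs from the same precursor were compared as pairs. Both arms were tested for 45 precursors. Both were called for 5 of them, and 1 arm for 21, where 38.2% of single miRNAs were called. For mir-374a, mir-493 and mir-671 the arms were called in the same direction. miR-671-5p and miR-671-3p, at 1.79 to 7.06 CPM, had log2 fold changes of −1.17 and −1.27, and both calls were lost without P7 library 5 or P28 library 6 (edgeR adjusted p up to 0.0899 over all left-out libraries).

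For mir-148a and mir-151 the arms were called in opposite directions. miR-148a-3p rose from 33873, 24743 and 24535 CPM to 38757, 39623 and 43786 CPM (log2 fold change 0.56, SE 0.14, edgeR adjusted p = 0.0125). Its partner miR-148a-5p fell from 70.6, 68.5 and 87.5 CPM to 51.2, 46.9 and 45.7 CPM (log2 fold change −0.65, SE 0.15, edgeR adjusted p = 0.00818). The ratio of both arms within a library does not depend on how libraries are scaled. The log2 ratio of 5p to 3p was −8.91, −8.50 and −8.13 at P7 and −9.56, −9.72 and −9.90 at P28. In the same way miR-151-3p had a log2 fold change of 0.49 and miR-151-5p one of −0.74, with log2 ratios of −5.23, −5.05 and −4.42 at P7 and −6.07, −5.84 and −6.48 at P28. The ratios of the ages did not overlap for either precursor. The calls of the falling 5p arms were kept in every alternative, whereas that of miR-148a-3p was lost without P7 library 5 or P7 library 6 and under library totals, and that of miR-151-3p under 11 of 18 alternatives. Over all 45 precursors the arm ratios of the ages did not overlap in 19 (42.2%), a share no higher than the 48.8% of single miRNAs without overlap, with the less abundant arm gaining at P28 in 10 and losing in 9. These precursors were picked out after their values were seen.

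**Figure D5:**
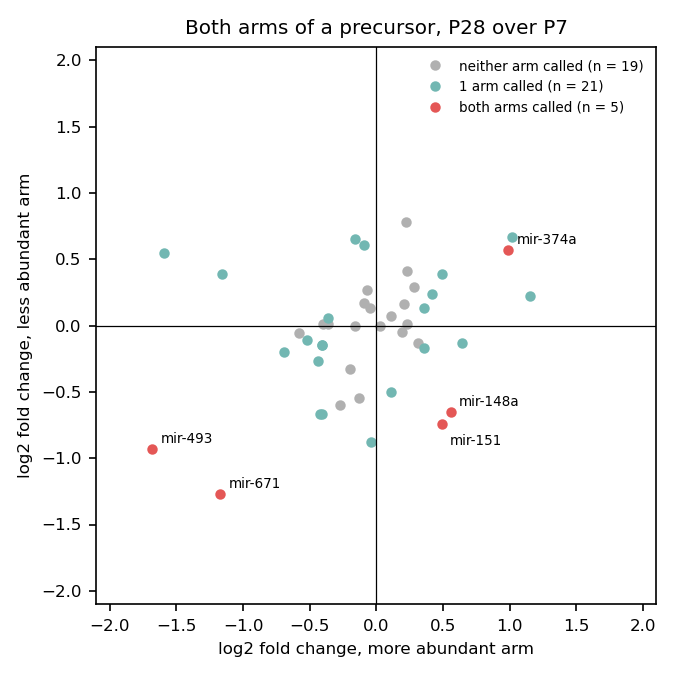
Log2 fold change of P28 over P7 for the more abundant arm (x axis) and the less abundant arm (y axis) of 45 precursors, with red points where both arms were called, green points where 1 was and grey points where neither was. mir-148a and mir-151 lie in the lower right, where the abundant arm is higher and the other arm lower at P28.

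Neighboring miRNAs were compared because those within a short distance are often cut from one transcript. Using RefSeq positions on Sscrofa11.1, 188 miRNAs with a single precursor were placed, and 64 of them formed 21 groups with gaps of at most 10000 bases. At least 2 members were called in 7 groups, where 38.2% of all miRNAs tested were called, and no group held calls in both directions. In the group that holds mir-374a both calls were arms of that precursor. Whether neighbors changed together was not tested. Besides the clusters already described, miR-532-5p, miR-500 and miR-362 on the X chromosome were lower, with log2 fold changes of −0.36, −1.07 and −0.92. miR-500 went from 25.5, 27.8 and 25.2 CPM at P7 to 11.4, 11.2 and 15.4 CPM at P28. The call of miR-532-5p was lost without P7 library 5, P28 library 5 or P28 library 6. In the group of miR-17, miR-18a, miR-19a and miR-20a on chromosome 11, miR-18a was called and the rest were not, with log2 fold changes between −0.36 and 0.09.

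Protein-coding genes known to carry miRNAs in their introns offered a readout from the total RNA libraries of the same ages and batch. Of 14 such host genes 11 were matched by symbol and tested, and 7 were called (63.6%), 4 higher and 3 lower at P28, against 31.7% of the 5301 genes tested. RefSeq placed the precursor inside the gene for 10 of the 11. PPARGC1B, a coactivator of mitochondrial genes that contains mir-378-1, was at 119.9, 122 and 98.2 CPM at P7 and at 149, 269 and 238 CPM at P28 (log2 fold change 0.95, SE 0.21, edgeR adjusted p = 0.011), beside 0.52 for miR-378. COL27A1, a fibrillar collagen gene with mir-455 inside, was at 26.6, 23.1 and 26.6 CPM at P7 and at 11.8, 18.2 and 18.8 CPM at P28, a log2 fold change of −0.65 beside −0.67 for miR-455-3p. The more abundant arm, miR-455-5p, had −0.41 and was not called (edgeR adjusted p = 0.0642). In these 2 cases the gene and a miRNA with a precursor inside it were called in the same direction. The miR-378 entry also holds reads of mir-378-2, which was not placed inside PPARGC1B. The call of COL27A1 was lost without any 1 of the P7 libraries or P28 library 5 and with all 12 libraries in 1 fit, and that of miR-378 under 5 alternatives.

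At the other hosts called, the miRNA was not called or was called the opposite way. SMC4, a condensin subunit used in mitosis that holds mir-15b, fell from 406, 500.1 and 433 CPM to 148, 186 and 144 CPM (log2 fold change −1.49, SE 0.13, edgeR adjusted p = 3.53e-04), while miR-15b was at 67.5 to 88.2 CPM at P7 and 69.9 to 77.9 CPM at P28 and was not called. DALRD3, which contains mir-191 and mir-425, rose from between 106 and 115 CPM to between 146 and 175 CPM, a log2 fold change of 0.53, while miR-425-5p had −0.44 and was called lower and miR-191 had 0.09. The call of miR-425-5p was lost without P7 library 5, P7 library 6, P28 library 4 or P28 library 6, at an edgeR adjusted p of up to 0.141. WWP2, a ubiquitin ligase gene with mir-140 inside, had a log2 fold change of 0.59, and miR-140-3p had 0.23, not called. TLN2 had 0.45 beside 0.03 for miR-190a, and TRPM3 had −1.47 beside −0.65 for miR-204, which was not called. NFYC, LPP, ARPP21 and CTDSPL were not called. The number of hosts called was 4 without P7 library 4 and 4 without P7 library 6, and SMC4, DALRD3 and PPARGC1B were called in every alternative. Whether a gene and its miRNA differed in their change was not tested, since they come from different libraries and scales.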

How the data were processed

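Small RNA from pig hearts was measured in the 3 P7 and 3 P28 libraries of batch cd. The authors deposited expected counts with a row for every precursor of a mature miRNA, splitting ambiguous reads among rows, and read counts per gene from total RNA. The aligner and build of the small RNA data are not given in the sources used here. The columns were assigned to an age only. Rows of a mature miRNA were summed, since 79.5% of nonzero sums were whole (within 0.05) against 38.2% of the separate rows, and 5 names with the same reads as another were merged. Sums were rounded, and 74 of the miRNAs tested had fractional counts, the mark of split reads.

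edgeR 4.0.16 in R 4.3.3 was used with TMM, a minimum of 10 counts in 3 of 6 libraries, the quasi-likelihood test and Benjamini-Hochberg adjustment over all features. Values are positive when higher at P28. Fits were tested on simulated data. Named miRNAs are the 12 with the smallest p in each direction among those called without overlap, the 5 most abundant, and list members that were called or most abundant. The members and lists were chosen with earlier results of these data known. The IGF2 and H19 list had no member in the table. Alternatives covered scaling (DESeq2 1.42.0 size factors, upper quartile, library totals), filters, DESeq2 and limma 3.58.1 voom tests, all 12 libraries, precursor rows, the column number as a block and left-out libraries. Mature sequences and their base composition were not used here, so seeds and composition were not set against the changes. Plots were drawn with matplotlib.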

Additional observations from a re-analysis of the deposited data

How the results depend on the processing

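The number of miRNAs called lay between 63 and 115 under all alternatives that kept the threshold, against 94. Scaling by DESeq2's size factors gave 91, upper quartile 79, DESeq2's test 90, limma voom 93, no filter 95, a minimum of 50 counts 85, the largest precursor row 90 and a fit of all 12 libraries 72. Summing precursor rows was the main setting itself. Taking each precursor row separately gave 115. The calls higher at P28 numbered 15 under library totals, and those lower 100. Under library totals without miR-1, an alternative chosen after seeing the data like that of separate entries for all names (96 calls), 26 were higher. An added limit of 1 on the log2 scale left 37 calls, 11 higher and 26 lower, and an unadjusted p of at most 0.05 with a change over 0.5 gave 84. Without 1 library, 63 to 85 miRNAs were called, 21 to 37 higher and 39 to 48 lower, and 4 to 7 host genes, against 4 with all 12 libraries in 1 fit.

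With the column number as a replicate block 66 miRNAs were called, 25 higher and 41 lower, and 65 of them were among the 94. Deviations of libraries with the same number correlated at −0.00306, −0.135 and −0.285, and those with different numbers at −0.119 to 0.208. With 3 libraries per age these values cannot decide whether the numbers pair the hearts.

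Of the 82 called miRNAs followed through the alternatives, 50 stayed called in all that tested them and 32 lost the call at least once, with no change of sign. Of the miRNAs that were not called, 10 were followed and each changed sign in at least 1 alternative. Under library totals these were let-7f (−0.15), miR-16 (−0.21), miR-92a (−0.24), miR-181a (−0.20), miR-140-3p (−0.07), miR-126-3p (−0.20), miR-192 (−0.22), miR-143-3p (−0.27) and miR-30d (−0.29), the last pair then called lower at adjusted p-values of 0.0272 and 0.0339 by edgeR, as was miR-30e-5p without a change of sign (−0.40, adjusted p = 0.013). Under totals without miR-1 they were miR-16 (−0.04), miR-92a (−0.07), miR-181a (−0.04), miR-126-3p (−0.03), miR-192 (−0.06), miR-143-3p (−0.11) and miR-30d (−0.12). Without 1 library miR-143-3p ranged from −0.03 (P28 library 6) to 0.09, miR-30d from −0.07 (P28 library 6; −0.04 without P7 library 5) to 0.12 and miR-30e-5p from −0.17 to 0.04 (P28 library 4). The cause was not tested. The 3 hearts per age and levels of a few CPM limit the smallest changes.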

Other observations

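Of the 94 called miRNAs, 37 belonged to none of the lists. Several were described as named miRNAs or as arms, and the rest included miR-582, which rose from 159.5, 136 and 150.3 CPM at P7 to 189.9, 322 and 324 CPM at P28 (log2 fold change 0.91, SE 0.20, edgeR adjusted p = 0.00584), and miR-504, at 0.73, whose call was lost without P7 library 5, P7 library 6 or P28 library 6 (edgeR adjusted p up to 0.0696). Among those that fell, miR-574 went from 109.9, 102 and 123 CPM to 68.0, 63.2 and 68.2 CPM (log2 fold change −0.75, SE 0.13, edgeR adjusted p = 0.00213), and miR-342 from 129, 111 and 130.2 CPM to 67.0, 86.2 and 73.6 CPM. miR-221-3p, which is known to repress the cell cycle inhibitor p27, was at 79.7, 79.7 and 82.9 CPM at P7 and at 60.1, 45.7 and 44.7 CPM at P28 (log2 fold change −0.69). Its neighbor miR-222 had −0.45 with overlapping ages and was not called. These miRNAs were picked out after their values were seen.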
